A study of Mus musculus with 4 samples.

Results

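The genes described here are p53 (Trp53), its inhibitors Mdm2 and Mdm4, and 7 core p53 target genes, Cdkn1a, Ccng1, Zmat3, Trp53inp1, Gadd45a, Phlda3 and Perp. They were chosen by symbol, and every probe set annotated to exactly 1 of the 10 symbols was used. The annotation named no such probe set for Trp53, so its level was not analysed here. The other 9 genes had 15 probe sets, of 20393 probe sets and 12394 genes tested in all.

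The arrays measured marrow cells from Mll-AF4stop knock-in animals, whose Mll-AF4 fusion stays silent until Cre recombinase acts on the allele. All 4 arrays came from mice given 5-FU (5-fluorouracil, which kills cycling blood cells). Marrow was taken 5 days later and infected ex vivo. Cells with GFP were sorted 2 days later and kept for 14 days in cytokines for lymphoid progenitors. The Cre-GFP group (2 arrays) received a retrovirus with Cre and GFP, and the control group (2 arrays) a GFP retrovirus labelled MIG. Age, strain background and the number of animals are not stated in the labels. The design text of the series names the control virus MIG-Cre, against the sample labels, which were followed here. If the control virus carried Cre too, the fusion would be active in both groups. Under the sample labels, Cre itself and the activated fusion cannot be told apart. Nothing says that arrays of a group came from separate animals or cultures, so the p-values rest on a spread among arrays that may be technical.

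p53 is a transcription factor that DNA damage, oncogene activity and ribosome stress stabilize. Mdm2 is the ubiquitin ligase that marks p53 for destruction and is itself a p53 target, which closes a feedback loop, and Mdm4 binds p53 and restrains its activity. In blood progenitors p53 is known for limiting cell division and survival after damage, through targets that stop the cell cycle, adjust oxidative and metabolic state, or promote cell death. p53 is regulated mainly as a protein, which arrays do not measure.

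A probe set is called separated here where both Cre-GFP readings lay on the same side of both control readings. Of 11 target probe sets, 9 were separated with Cre-GFP lower, against 14.6% of all probe sets tested. These 9 covered 6 of the 7 target genes, all but Perp. Of the 4 probe sets of Mdm2 and Mdm4, 1 was separated in this way, a dim Mdm4 probe set. Zmat3 was 2.00-fold, Trp53inp1 1.88-fold, Gadd45a 1.67-fold and Ccng1 1.53-fold lower in Cre-GFP, each on its brightest probe set, and Cdkn1a 1.39-fold. The Gadd45a probe set was dim too, with both Cre-GFP values under the 20th percentile of the probe sets tested. No member was separated with Cre-GFP higher, against 15.4% of all probe sets. In all, 13 of the 15 member probe sets had a mean below that of the control, against 49.4% of all probe sets.

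None of these differences passed in limma with Benjamini-Hochberg adjustment over all 20393 probe sets. The members' adjusted p lay between 0.314 and 1.0, and 0 of all probe sets passed (0.0%), while 976 (4.79%) had an unadjusted p under 0.05. At an unadjusted p under 0.05, 7 of 11 target probe sets and 1 of 4 regulator probe sets were lower, against 2.42% of all probe sets. With 2 arrays against 2, an exact two-sided permutation test cannot give a p below 0.333. Whether targets differed from regulators was not tested, since the genes were chosen with results of these arrays known.

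**Figure D1:**
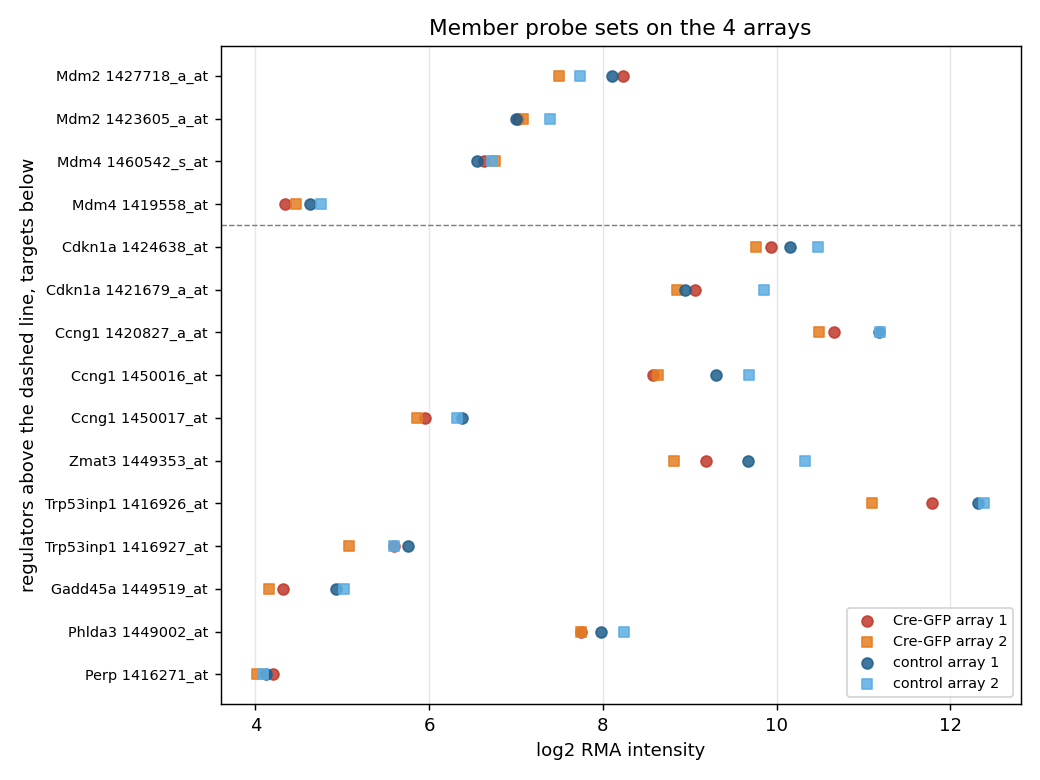
Log2 RMA intensity (horizontal axis) of the 15 probe sets on each of the 4 arrays, with red and orange points for Cre-GFP and blue points for control. Mdm2 and Mdm4 lie above the dashed line and the targets below it; for the brightest Ccng1 and Trp53inp1 probe sets both control points nearly coincide, and both Cre-GFP points lie to their left.

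Mdm2 was measured by a pair of probe sets. On the brighter, 1427718_a_at, it read 8.23 and 7.50 on Cre-GFP arrays 1 and 2 against 8.10 and 7.74 on control arrays 1 and 2, on the log2 scale. The control arrays lay between the Cre-GFP arrays, which differed from each other more than the groups did. The log2 difference (Cre-GFP minus control, as in every difference given here) was −0.055 ± 0.282 (limma's standard error, SE, n = 2 per group), with a 95% interval from −0.75 to 0.64. Its sign turned with single arrays, to 0.313 without Cre-GFP 2 and 0.126 without control 1. The other, 1423605_a_at, read 7.02 and 7.08 against 7.0 and 7.40. Control 1 was the lowest of the 4 arrays and control 2 the highest. Its difference was −0.145 ± 0.179, with an interval from −0.59 to 0.30, and 0.0528 without control 2. These intervals include values 1.5-fold and 1.68-fold lower in Cre-GFP, so the arrays do not show that Mdm2 was equal in both groups.

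Mdm4 gave different readings on its probe sets. The brighter, 1460542_s_at, read 6.64 and 6.76 on Cre-GFP arrays against 6.55 and 6.73 on control arrays, with a difference of 0.06 ± 0.14 and an interval from −0.29 to 0.41. The groups overlapped, and the difference was −0.0015 without Cre-GFP 2 and −0.029 without control 1. The dimmer, 1419558_at, read 4.35 and 4.46 against 4.63 and 4.75 and was separated, with a difference of −0.29 ± 0.10. Its values lay under the 20th percentile of the probe sets tested on all 4 arrays, and the difference was 6.6e-05 once values under that percentile were raised to it. The mean of both probe sets differed by −0.113. The 3 other regulator probe sets, none of them under that percentile, had overlapping groups.

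**Figure D2:**
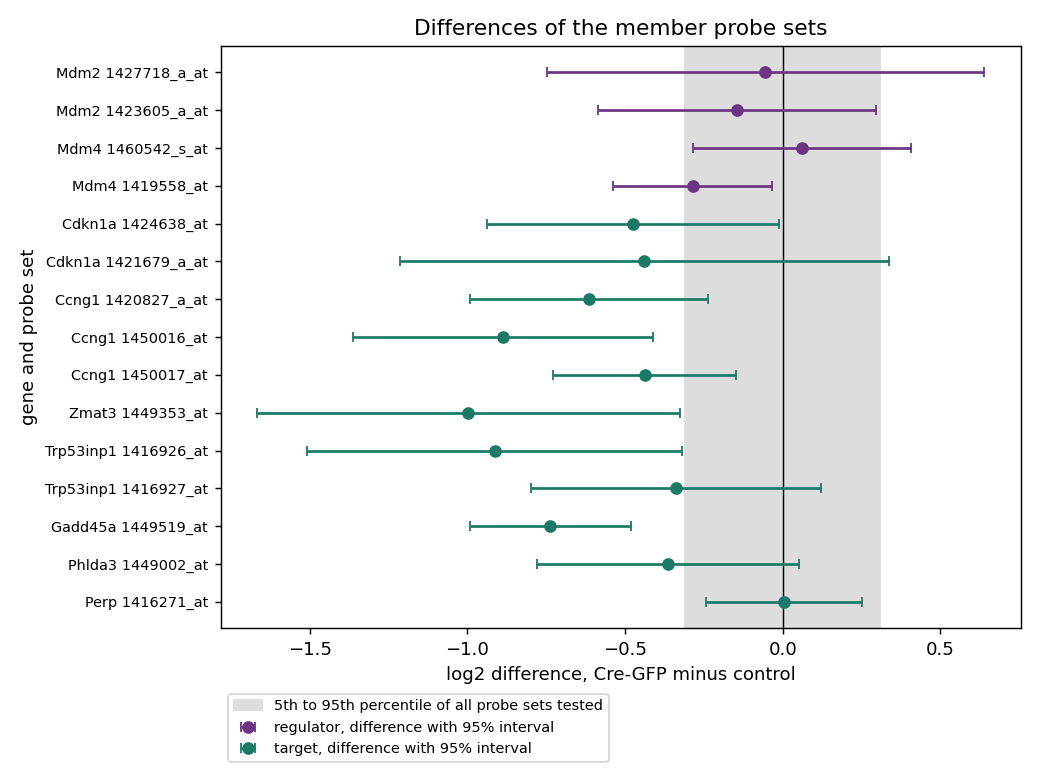
Log2 difference, Cre-GFP minus control, of each probe set (points) with limma's 95% interval (bars), in purple for Mdm2 and Mdm4 and green for the targets. The grey band spans the 5th to 95th percentile of all probe sets tested, −0.31 to 0.31; 10 of the 11 target points lie to its left and Perp lies at 0.

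Cdkn1a encodes p21, the inhibitor of cyclin-dependent kinases through which p53 halts the cell cycle. On its brighter probe set, 1424638_at, it read 9.93 and 9.76 on Cre-GFP arrays 1 and 2 against 10.16 and 10.48 on control arrays 1 and 2. Both Cre-GFP arrays were below both controls by at least 0.226, and control 2 stood highest. The difference was −0.47 ± 0.19 (95% interval −0.94 to −0.01), and −0.31 without control 2. On 1421679_a_at it read 9.07 and 8.85 against 8.95 and 9.85. Here control 1 lay between the Cre-GFP arrays and control 2 alone stood apart, so that the difference of −0.44 ± 0.31 became 0.0145 without control 2 and −0.89 without control 1.

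Ccng1 encodes cyclin G1, a p53 target that recruits a phosphatase to Mdm2 and so feeds back on p53. It was the member with the most probe sets, and all 3 were separated. On the brightest, 1420827_a_at, it read 10.66 and 10.49 on Cre-GFP arrays against 11.18 and 11.20 on control arrays. The controls agreed within 0.02 of each other and lay at least 0.525 above both Cre-GFP arrays. The difference was −0.61 ± 0.15, an interval from −0.99 to −0.24, and ranged from −0.70 to −0.53 when each array was left out in turn. On 1450016_at it read 8.58 and 8.64 against 9.31 and 9.68, a 1.85-fold lower value in Cre-GFP (−0.89 ± 0.19). On the dimmest, 1450017_at, it read 5.96 and 5.87 against 6.38 and 6.32, a 1.36-fold lower value (−0.44 ± 0.12). All 3 stayed below 0 without any single array, as separated probe sets must.

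The promoter windows of Cdkn1a, Ccng1 and Mdm2 are shown because these genes stand for a target that halts the cycle, a target with 3 separated probe sets, and the feedback regulator. RefSeq's table for GRCm38.p6 gave windows of 250 bases before to 50 after a gene start for 7 of the 10 genes, 9 windows in all. Zmat3, Trp53inp1 and Perp had no window. The 250 bases before the start are printed, 5′ to 3′ on the gene's strand. They cover chr17:29090729-29090978 (+ strand) for the upstream start of Cdkn1a, chr11:40755287-40755536 (− strand) for Ccng1 and chr10:117710759-117711008 (− strand) for Mdm2. Capitals mark matches to the p53 decamer, a motif of 10 bases that reads the same on both strands, and to a full site of 20 bases, a pair of abutting decamers with at most 1 mismatch.
Cdkn1a: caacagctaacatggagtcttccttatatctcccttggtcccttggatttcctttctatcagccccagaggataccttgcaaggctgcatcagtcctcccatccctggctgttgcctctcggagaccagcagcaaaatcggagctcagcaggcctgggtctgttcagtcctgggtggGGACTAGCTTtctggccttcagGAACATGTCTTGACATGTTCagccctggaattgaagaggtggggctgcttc
Ccng1: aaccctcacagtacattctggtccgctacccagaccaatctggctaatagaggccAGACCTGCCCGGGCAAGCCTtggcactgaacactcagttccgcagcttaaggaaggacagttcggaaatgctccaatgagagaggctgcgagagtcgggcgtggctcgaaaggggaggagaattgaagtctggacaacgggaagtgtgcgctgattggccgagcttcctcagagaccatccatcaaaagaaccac
Mdm2: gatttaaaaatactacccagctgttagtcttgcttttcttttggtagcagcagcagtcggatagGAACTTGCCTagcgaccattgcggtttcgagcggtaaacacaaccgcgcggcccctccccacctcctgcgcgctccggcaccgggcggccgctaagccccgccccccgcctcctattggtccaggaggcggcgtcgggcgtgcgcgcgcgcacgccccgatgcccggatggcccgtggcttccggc
Full sites were found in the window of the upstream Cdkn1a start, beginning 51 bases before the start, and in that of Ccng1, beginning 195 bases before it, each with 1 mismatch. They were found in 2 of the 9 windows, against 0.0883% of all 32851 windows. Decamers were found in 5 of the 9, against 8.36% of all windows. These 5 were the windows of Ccng1, Mdm2, Gadd45a, Trp53 and the upstream Cdkn1a start. The Phlda3 window and both Mdm4 windows held no decamer. The window of the upstream Cdkn1a start also held a decamer 73 bases before the start, outside the full site. A single decamer lay 186 bases before the Mdm2 start, and none in the window of the other Cdkn1a start, 2790 bases further along the chromosome. Decamers separated by spacers were not searched for. The p53 elements known for Mdm2 lie in the first intron, outside this window. A match is a run of letters and does not show binding, and the arrays do not measure binding.

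Zmat3, a p53-induced zinc finger protein that binds RNA and affects splicing, had 1 probe set and the lowest difference of the members. It read 9.19 and 8.82 on Cre-GFP arrays against 9.67 and 10.33 on control arrays. The groups were separated by 0.479, and the controls lay further apart from each other than that. The difference was −0.997 ± 0.273 (interval −1.67 to −0.33), with −0.66 without control 2 and −1.33 without control 1. Of all probe sets tested, 0.363% had a lower difference.

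Trp53inp1, a p53-induced nuclear protein that promotes p53's activity in stress and also takes part in autophagy, had a bright and a dim probe set. On 1416926_at it read 11.79 and 11.10 on Cre-GFP arrays against 12.32 and 12.39 on control arrays. The controls lay close together and Cre-GFP 2 stood lowest. The difference was −0.91 ± 0.24, −0.57 without Cre-GFP 2. On the dimmer 1416927_at it read 5.59 and 5.08 against 5.75 and 5.60. Cre-GFP 1 lay only 0.007 below control 2, so the separation on this probe set rests on the third decimal. The difference there was −0.34 ± 0.19 (interval −0.80 to 0.12), −0.083 without Cre-GFP 2 and −0.60 without Cre-GFP 1.

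Gadd45a, a stress-induced protein that binds cell cycle and stress kinase proteins, read 4.31 and 4.16 on Cre-GFP arrays against 4.93 and 5.02 on control arrays. It was separated by 0.617, and both Cre-GFP values lay under the 20th percentile of the probe sets tested. The difference of −0.74 ± 0.10 had the lowest adjusted p of the members in limma (0.314), and it was −0.18 with values under that percentile raised to it. Phlda3, a p53-induced inhibitor of Akt, read 7.75 and 7.75 against 7.98 and 8.24. Its Cre-GFP arrays agreed closely and both controls lay above them. The difference was −0.36 ± 0.17 (interval −0.78 to 0.05), −0.23 without control 2. Perp, a membrane protein of p53-dependent death and of desmosomes, read 4.20 and 4.02 against 4.12 and 4.08. All of its values lay under the 20th percentile, and its difference was 0.0049 ± 0.10, turning to −0.085 without Cre-GFP 1. Perp was the 1 target whose groups overlapped on every probe set.

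**Figure D3:**
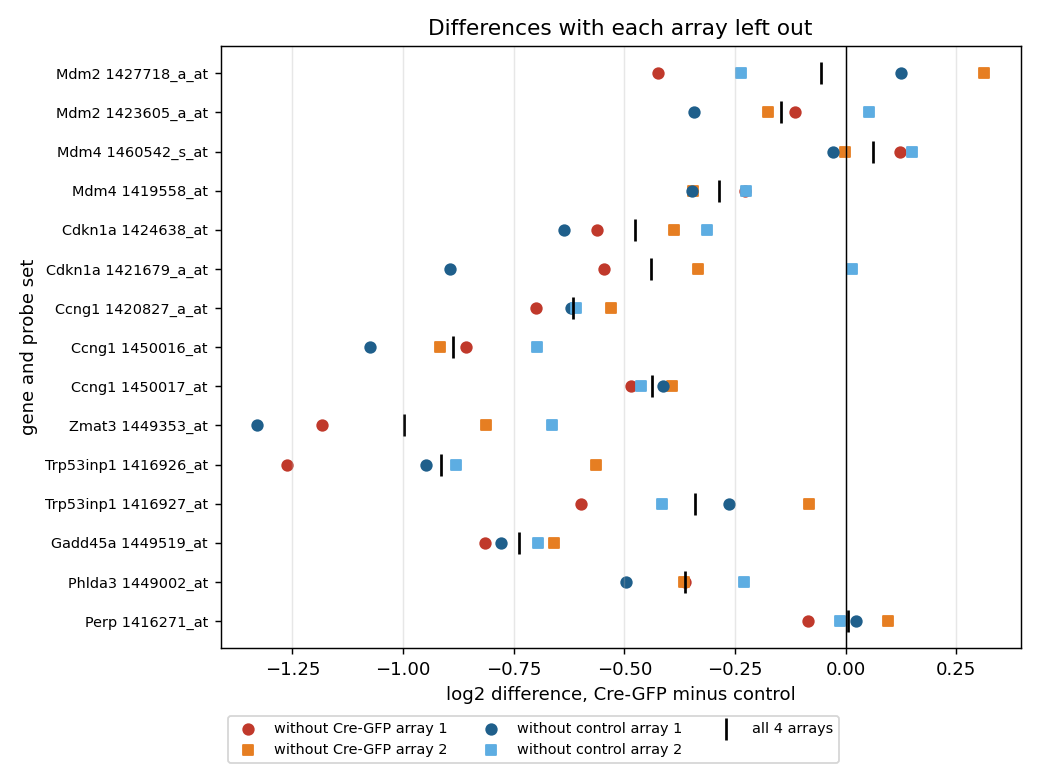
Log2 difference of each probe set with all 4 arrays (black bars) and with each array left out (coloured points). The points of the 10 separated probe sets, the dimmer Mdm4 probe set among them, all stay below 0, as separation requires. Those of both Mdm2 probe sets, the brighter Mdm4 probe set, the dimmer Cdkn1a probe set and Perp lie on both sides of 0.

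Arrays of the same group also differed from each other across the targets. Cre-GFP 2 read lower than Cre-GFP 1 on the brightest probe sets of Cdkn1a, Ccng1, Zmat3, Trp53inp1, Gadd45a and Perp, and control 2 read above control 1 on those of Cdkn1a, Ccng1, Zmat3, Trp53inp1, Gadd45a and Phlda3. The summed intensity of the 7 targets on a linear scale, 1 probe set per gene, was 6974 and 5193 on Cre-GFP arrays 1 and 2 against 9704 and 10784 on control arrays 1 and 2. Trp53inp1 and Ccng1 supply most of that sum. The median log2 difference of the 7 targets, 1 probe set per gene, was −0.61, against 2.85e-10 for all genes counted the same way. That of Mdm2 and Mdm4 was 0.0031, which was −0.15 to 0.156 when each array was left out.

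Markers of the cell types in such a culture also stood at different levels in the groups, and 0 of them passed in limma over all genes. Of 15 B lineage markers, 12 (against 49.9% of all genes) were lower in Cre-GFP and 9 were separated in that direction, against 14.9% of all genes. At an unadjusted p under 0.05, 5 of these 15 were lower, against 2.53% of all genes. Their summed intensity was 36601 and 35636 for Cre-GFP against 40384 and 51276 for control, and none of them was under the 20th percentile on all arrays. Vpreb1, Igll1, Dntt and Ebf1 supplied most of that sum, and the groups overlapped for Vpreb1 and Dntt. Spib and Cd79b differed by −2.26 and −1.70. The other 3 B lineage markers were higher, and 1 of these, Rag2 (0.385 ± 0.168), was separated, against 15.2% of all genes. Of 14 monocyte and macrophage markers, 11 were higher and 3 lower (49.9% of all genes were lower). The groups were separated with Cre-GFP higher for 3, against 15.2% of all genes, and 2 were higher at an unadjusted p under 0.05, against 2.31%. Their sums were 2748 to 3448 in Cre-GFP and 1888 to 2590 in control. Csf1r, Lyz2 and Ctss supplied most of each sum, and the groups overlapped for Ctss. Itgam, Fcgr1 and C1qb, all counted as higher, were under the 20th percentile on all arrays. Of 11 neutrophil and granule markers, 8 were higher, 4 were separated in that direction and 3 were higher at an unadjusted p under 0.05, against the same shares of all genes, and 1 was separated and lower. Their sums were 3797 and 4507 against 1567 and 5339, with the controls on both sides of Cre-GFP. Mpo, the peroxidase of myeloid granules, read 7.32 and 7.32 against 6.21 and 5.93 (1.25 ± 0.15). Ctsg, a protease of the same granules, read 7.48 and 7.75 against 6.62 and 6.63 (0.99 ± 0.16). Among 6 erythroid markers 3 were lower, with sums of 771 and 826 against 1558 and 1523, most of which is the carbonic anhydrase Car2 (−1.46). T lineage (8 genes), mast cell and basophil (6) and stroma and endothelium markers (8) had medians between 0.002 and 0.069. Under the 20th percentile on all arrays were 3, 1 and 4 of them. The part of cell composition in the differences of the p53 targets was not tested. In such bulk samples, fewer cells of a type and less RNA per cell cannot be told apart.

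Genes that act on p53 were divided between both directions. Of 13 measured activators and modifiers, 8 were higher and 5 lower, their median was 0.086 (−0.00995 without control 2 and up to 0.143 without control 1), and 0 passed over all genes in limma (0.0% of all genes did; 1 was higher at an unadjusted p under 0.05, against 2.31% of all genes). Atr, a kinase of the replication stress checkpoint, read 6.86 and 6.70 against 6.44 and 6.34 (0.39 ± 0.14). Cdkn2a, whose Arf product blocks Mdm2, read 5.62 and 5.39 against 5.86 and 5.67 (−0.27 ± 0.14). Both were separated, in opposite directions. Of 12 inhibitors and ubiquitin enzymes, 7 were higher and 5 lower, with a median of 0.018. The groups were separated for 3 with Cre-GFP higher and 2 lower, against 15.2% and 14.9% of all genes. Of these 12, 0 passed in limma (0 at an unadjusted p under 0.05). Rchy1, a p53 ubiquitin ligase that p53 also induces, read 7.65 and 7.94 against 8.09 and 8.50 (−0.50 ± 0.21). Cul4a, a scaffold of ubiquitin ligases, read 7.45 and 7.85 against 7.08 and 7.33 and was separated with Cre-GFP higher (0.45 ± 0.20). Trim24, another ligase for p53, differed by −0.70 ± 0.36, with control 2 at 7.31 and the other 3 arrays between 6.0 and 6.15. The p53 relatives Trp63 and Trp73 differed by −0.14 and 0.01.

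Other p53 targets were counted in 3 lists by role, and how they compare with the members was not tested. Among 15 genes of DNA repair and metabolism, 9 were lower (49.9% of all genes were), and 7 were separated in that direction and 2 in the other, against 14.9% and 15.2% of all genes. Ddit4, a stress-induced inhibitor of mTORC1 signalling, read 8.25 and 8.0 against 9.04 and 9.23 (−1.01 ± 0.18), a difference of about the size of that of Zmat3. Rrm2b, the p53-inducible ribonucleotide reductase subunit that supplies nucleotides for repair, read 8.56 and 8.53 against 9.09 and 9.10 (−0.55 ± 0.16). Both groups agreed closely within themselves. Slc19a2, a thiamine transporter, and Ephx1, an epoxide hydrolase, differed by −0.45 ± 0.18 and −0.44 ± 0.17. At an unadjusted p under 0.05, 4 of the 15 were lower, against 2.53% of all genes, and 0 passed after adjustment. The median was −0.161, and −0.26 without Cre-GFP 1.

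Among 11 targets of arrest and feedback, 6 were lower, near the 49.9% of all genes, and 3 of these were separated, against 14.9% of all genes, with a median of −0.189 that turned to 0.012 without control 1. Ckap2, a spindle protein, read 7.99 and 7.82 against 8.34 and 8.30 (−0.42 ± 0.16), and the kinase Plk2 differed by −0.33 ± 0.15. Among 13 targets that promote death, 10 were lower, against 49.9% of all genes. Of the 13, 3 were separated in that direction and 1 in the other, against 14.9% and 15.2% of all genes. Their median was −0.116, −0.018 without control 2 and −0.041 without Cre-GFP 2. Steap3, a metalloreductase, differed by 0.54 ± 0.31 and Siva1, which binds death receptors of the TNF receptor family, by 0.23 ± 0.13. Their values were above 0, unlike those of most of the list. Of these 2 lists, 1 gene (Ckap2) had an unadjusted p under 0.05 and 0 passed in limma. Of all genes, 2.53% were lower and 2.31% higher at that unadjusted p.

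**Figure D4:**
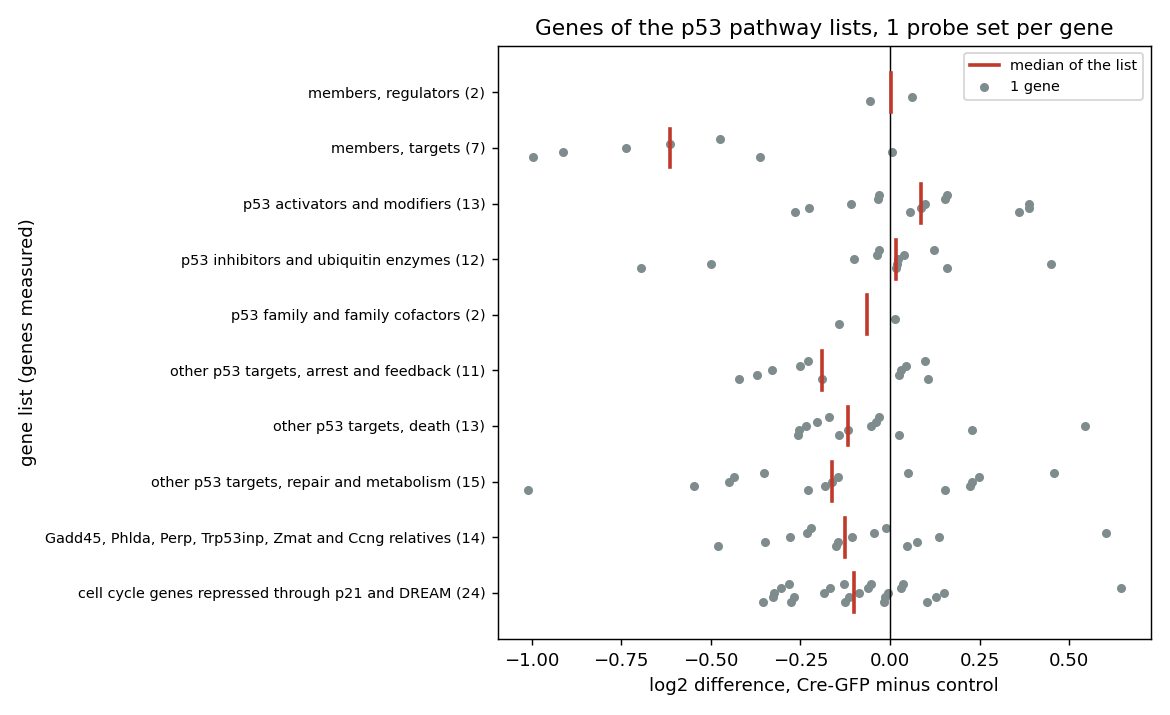
Log2 difference, Cre-GFP minus control, of each measured gene (grey points, 1 probe set per gene) in the lists of p53 regulators, targets, relatives and cell cycle genes, with each list's median as a red bar. The 7 targets have their median at −0.61, and the medians of the other 9 lists lie between −0.189 and 0.086.

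Relatives of the members by family were counted as well. Of 14 measured relatives, 10 were lower, against 49.9% of all genes. Of the 14, 4 were separated and lower and 1 separated and higher, against 14.9% and 15.2% of all genes. Their median was −0.125 (−0.0026 without Cre-GFP 2), and 0 passed in limma. At an unadjusted p under 0.05, 1 was higher, against 2.31% of all genes. Gadd45g read 4.78 and 4.30 against 4.85 and 4.79 (−0.28 ± 0.17). Emp1, of the family of membrane proteins to which Perp is related, read 7.83 and 8.33 against 7.52 and 7.44 and was separated with Cre-GFP higher (0.60 ± 0.21). Of 24 cell cycle genes that p53 represses through p21 and the DREAM repressor complex, 18 were lower in Cre-GFP. Of all genes, 49.9% were lower. Cdkn1a was lower too, and a link between them was not tested. Of the 24, 7 were separated and lower and 1 separated and higher, against 14.9% and 15.2% of all genes. Their median was −0.101, and 0 passed in limma (0 at an unadjusted p under 0.05). Ccnb2, a mitotic cyclin, differed by −0.33 ± 0.17, and Cenpa, the histone of centromeres, by −0.28 ± 0.16.

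The genes whose levels over the 4 arrays were nearest to those of Cdkn1a, after each gene was centred on its mean, were Zkscan14, Gpsm3 and Sh3bgrl2. Their root mean square distances from Cdkn1a were 0.0137, 0.0256 and 0.0311 on the log2 scale. Of 6197 genes at or above the median level, 52 lay within 0.1 of it, so many genes share this pattern over 4 arrays. Of the fusion's partner genes, Kmt2a and Aff1 differed by −0.18 ± 0.26 and −0.26 ± 0.27 on their brightest probe sets, with overlapping groups. Whether their probes lie in the construct was not analysed here, so they check nothing about its activation.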

How the data were processed

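The authors deposited 1 table of RMA intensities on a linear scale for 22690 probe sets and 4 arrays (RMA per the submitters' processing notes, with no version named). Per the labels' protocols, a NuGen Ovation kit amplified 20 ng of RNA per sample. As normally run, RMA equalizes the arrays, which hides a shift common to most genes, and compresses differences of dim probe sets. Median intensities were 85.1 to 87.7. Log2 of the deposited values was used with no further normalization. Only the 20393 probe sets with exactly 1 symbol in the platform annotation were tested; 691 had several symbols and 1606 had none. The fit was limma 3.58.1 in R 4.3.3 (lmFit, eBayes with an intensity trend, two-sided, Benjamini-Hochberg over all probe sets, threshold 0.05), tested on simulated data. Scan dates and detection calls were not used here, and with so few arrays the median 95% interval of a difference reached 0.37 to either side.

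Gene lists were described by counts and medians, with each gene's probe set of the highest mean. All member probe sets, up to 4 genes per list by smallest p, Kmt2a, Aff1 and the 3 genes nearest to Cdkn1a were eligible for naming. The members and lists were chosen with earlier results of these data known. Alternatives left out each array, added the replicate number as a block, left out the dimmest 40% or the shared probe sets, raised values under the 20th percentile, normalized or centred again, dropped the trend, or used 1 value per gene.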

Additional observations from a re-analysis of the deposited data

How the results depend on the processing

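No member probe set passed under any alternative run, with adjustment over all probe sets or genes of that run. Among the 10 separated ones the lowest adjusted p in limma was 0.167. It was that of Gadd45a with the mean of probe sets per gene, adjusted over genes. The differences of these 10 stayed below 0 in 117 of 118 values, the exception being Mdm4 1419558_at (6.6e-05 with dim values raised). A separated probe set keeps its sign when any single array is left out, and several alternatives leave the difference itself unchanged. Most of these values therefore could not have turned. Leaving out each array gave −0.423 to 0.313 and −0.343 to 0.0528 for the Mdm2 probe sets, −0.029 to 0.151 for Mdm4 1460542_s_at, −0.893 to 0.0145 for Cdkn1a 1421679_a_at and −0.085 to 0.095 for Perp. Mdm4 was −0.113 with the mean of its probe sets, and Perp −2.3e-04 after centring. The count of member genes lower without overlap was 6 with 1 value per gene, by either rule. Without single arrays, 10 to 13 member probe sets were lower without overlap, a count that cannot fall below 10 there. The count higher was 0 to 2 without single arrays. A group left with 1 array is separated more easily. The share over all probe sets was not counted for these settings, so both counts lack a baseline. Over all probe sets, 0 to 25 passed without single arrays. List medians without single arrays spanned −0.031 to 0.033 (inhibitors), −0.378 to 0.012 (arrest), −0.124 to −0.018 (death), −0.26 to −0.086 (repair and metabolism) and −0.179 to −0.0026 (relatives). The p53 relatives stood at 0.0125 (1 gene left) without the dimmest or without shared probe sets, and the death list at −0.169 without shared probe sets (9 genes left). With the replicate number as a block, 0 probe sets passed, and Zmat3 had an adjusted p of 0.625 in limma. Separation is read from the values themselves and does not depend on the block. Deviations of same-numbered arrays correlated at 0.362 over probe sets, which with only 2 pairs does not show a pairing.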
